A study of Mus musculus with 18 samples.

Results

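The genes described here code for the E2 ubiquitin-conjugating enzymes of mouse fibroblasts. They were chosen by name: every gene whose symbol is Ube2 followed by a letter, other than Ube2c, that was measurable in all libraries and had at least 10 fragments in at least 3 of them. That gave 31 members of 24318 genes in the deposited tables. The name pattern matches 37 genes. Besides Ube2c, which the rule leaves out, Ube2d2b, Ube2dnl1, Ube2dnl2, Ube2ql1 and Ube2u fell outside because they had at most 9 fragments in any of the 18 libraries. The member with the lowest single value was Ube2t, with 58 fragments in 1 library, so no member lay near the minimum. All 31 passed the expression filter and were tested. Ube2cbp is a member by its symbol alone, since the protein it codes for, also named Ube3d, binds an E2 and acts as an E3 ligase.

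Poly(A) RNA was sequenced from immortalised mouse embryonic fibroblasts in which the genes of all 3 small Maf proteins, MafF, MafG and MafK, are deleted. There were 2 cell lines with this deletion. T-N1G cells express a tethered heterodimer of the transcription factor Nrf1 and MafG (the genotype label reads T-NG1), and mock cells do not. Each line received vehicle, 0.3 µM MG132 or 1.0 µM MG132, a proteasome inhibitor, for 12 h, which makes 6 groups of 3 libraries. The promoter driving T-N1G and the clonality of the lines were not stated. The labels also leave unsaid whether replicate libraries came from separate cultures, so each p-value reflects the spread among these libraries and that spread may be technical. For each gene the fit of all 18 libraries used a shared estimate of spread, although the groups were not equally spread. Libraries at 1.0 µM were the least alike. A p-value of a comparison with them may therefore be too small, and a p-value of a comparison without them too large.

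An E2 receives ubiquitin from an E1 activating enzyme as a thioester and, together with an E3 ligase that binds the substrate, passes it to a protein or to the end of a growing chain. Some E2s place the first ubiquitin and others lengthen chains of a set linkage, of which those joined through lysine 48 send proteins to the proteasome. A few E2s carry a ubiquitin-like protein such as NEDD8 instead. Nrf1 (gene Nfe2l1) raises proteasome subunit genes when the proteasome is inhibited, and it binds DNA as a heterodimer with a small Maf protein.

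Totals ran from 18164380 to 21293709 fragments a library. The transgene was seen where the labels place it: Mafg, deleted in both lines, had 159, 814 and 3290.4 CPM in T-N1G cells at vehicle, 0.3 and 1.0 µM, against 6 to 25 fragments in any mock library, and Nfe2l1 had 1102, 4637 and 17010.5 CPM in T-N1G cells against 280, 376 and 315 CPM in mock cells. All 9 fibroblast markers were over 1 FPKM in every group, with sums of 1948 to 2332 FPKM at 1.0 µM and 3721 to 3964 FPKM under vehicle in T-N1G cells, and 2795 to 3255 FPKM and 3774 to 4099 FPKM in mock cells. Summed markers of leukocytes, endothelium and epithelium stayed at or below 3.56, 7.34 and 2.46 FPKM in any T-N1G library and 4.43, 16.7 and 7.40 FPKM in any mock library. Markers of muscle or fat summed to 6.58 to 17.4 FPKM in T-N1G libraries and 6.78 to 14.2 FPKM in mock libraries, mostly from Pparg. The highest endothelial and epithelial sums of each line were in the 1.0 µM libraries, and the part of these marker changes in the results was not tested. Libraries at 1.0 µM were also the least alike: the median SD of the members' log2 CPM there was 0.178 in T-N1G cells and 0.157 in mock cells, against 0.0596 and 0.0488 under vehicle. In bulk RNA, fewer cells of a type and less RNA per cell cannot be told apart.

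Levels are given as CPM, fragment counts scaled to library size with TMM factors, unless they are compared between genes, where FPKM, which allows for transcript length, is used. Differences are log2 changes from edgeR's quasi-likelihood test with their standard error (SE), and a gene is said to rise or fall when the Benjamini-Hochberg adjusted p over 13258 tested genes was under 0.05. Every adjusted p comes from that test unless DESeq2 is named. A change of MG132 against vehicle shares its vehicle libraries with the other dose, so the values of both doses are set side by side and are not independent.

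Under vehicle the members ranged widely in FPKM. Ube2s, which lengthens lysine 11 chains with the anaphase-promoting complex, was the most abundant, at 314.6 ± 16.1 FPKM in T-N1G cells and 293.5 ± 3.65 FPKM in mock cells (SD, n = 3 each). Ube2d3 followed at 141.5 ± 3.23 FPKM in T-N1G cells and 140.6 ± 1.29 FPKM in mock cells. In T-N1G cells the ranges of Ube2m and Ube2v1 overlapped, with means of 131.8 and 126.5 FPKM. In mock cells the ranges of Ube2d3 and Ube2v1 overlapped, with means of 140.6 and 136.6 FPKM. The lowest were Ube2j2 at 3.51 ± 0.466 FPKM and Ube2cbp at 3.14 ± 0.0685 FPKM in T-N1G cells, against 4.35 ± 0.510 FPKM and 4.31 ± 0.681 FPKM in mock cells. The 3 most abundant members held 34.4% of the summed FPKM in T-N1G cells and 33.7% in mock cells.

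**Figure D1:**
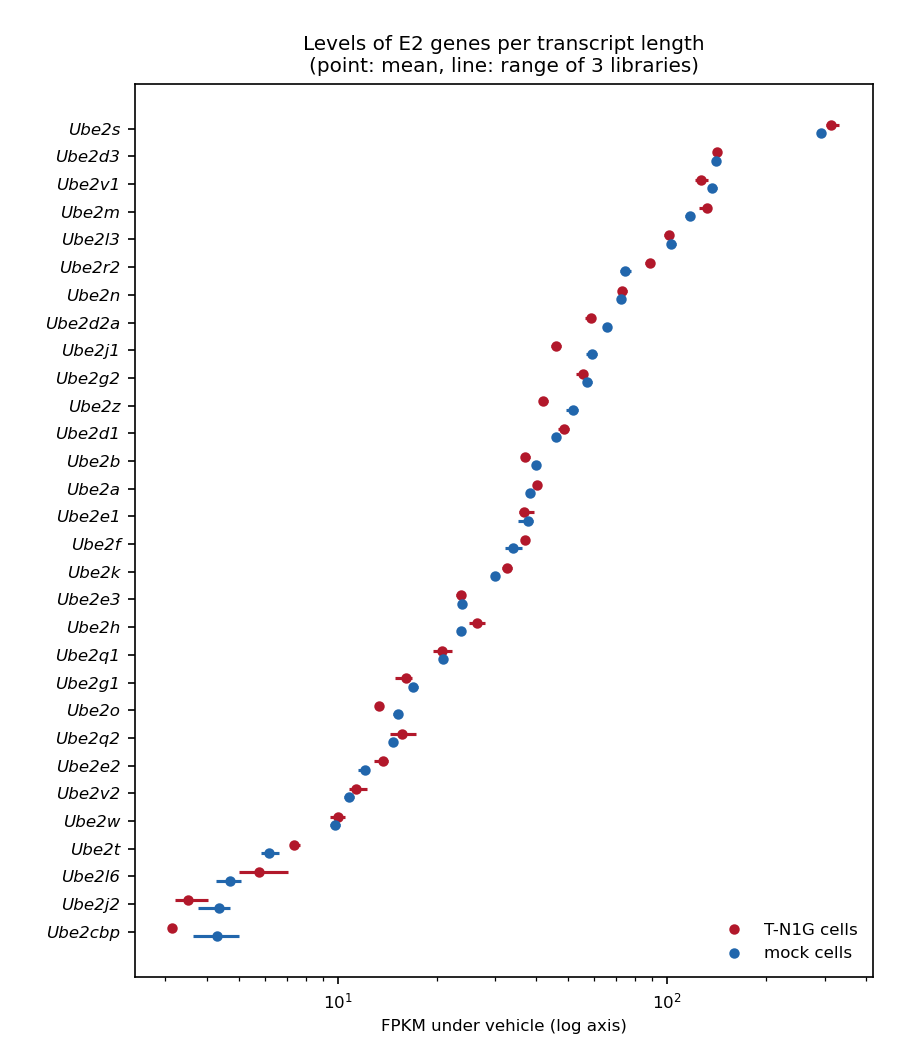
FPKM of E2 genes under vehicle, on a log axis, in T-N1G cells (red) and mock cells (blue). Points are means and lines the range of 3 libraries. Ube2s stands above the rest at 314.6 FPKM in T-N1G cells and 293.5 FPKM in mock cells, and Ube2cbp is at the bottom in both lines.

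As a sum over the 31 genes, E2 transcripts had 3699 ± 111, 4358 ± 218 and 4666 ± 555 CPM in T-N1G cells at vehicle, 0.3 and 1.0 µM, and 3732 ± 61.4, 3875 ± 30.2 and 4075 ± 382 CPM in mock cells (SD, n = 3 each). In both lines the highest library at 1.0 µM was number 1, with 5293 CPM against 4469 and 4237 CPM for the other T-N1G libraries, and 4452 CPM against 4083 and 3689 CPM for the other mock libraries. Those number 1 libraries also had the fewest fragments of their groups, 18164380 in T-N1G cells and 18751508 in mock cells.

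Antioxidant response elements are bound by heterodimers of Nrf factors with small Maf proteins. The promoters of the members were searched on both strands for their core, TGACNNNGC, from 250 bases before to 50 bases after each start in the RefSeq promoter table (build GRCm38.p6), in which 24 of the 31 members, Ube2o not among them, were matched by symbol. The core was found for Ube2e2, Ube2f, Ube2j1, Ube2q2 and Ube2v1, that is 20.8% of the 24, against 14% of the 27025 genes of the table and 12.4% of its 32851 promoters. The heat shock pairs TTCNNGAA and GAANNTTC were in none of the 24. They were found for 9.6% and 9.04% of the genes of the table, and in 8.52% and 7.86% of its promoters. The 250 bases before the start are shown for 4 members that the comparisons of the lines turn on or that hold the core, with the core in capitals. Ube2v1 (chr2:167632006-167632255, minus strand) holds it once and Ube2j1 (chr4:33031130-33031379, plus strand) once on each strand. Ube2l3 (chr16:17201493-17201742, minus strand) and Ube2k (chr5:65536995-65537244, plus strand) do not hold those letters in this window.
Ube2v1: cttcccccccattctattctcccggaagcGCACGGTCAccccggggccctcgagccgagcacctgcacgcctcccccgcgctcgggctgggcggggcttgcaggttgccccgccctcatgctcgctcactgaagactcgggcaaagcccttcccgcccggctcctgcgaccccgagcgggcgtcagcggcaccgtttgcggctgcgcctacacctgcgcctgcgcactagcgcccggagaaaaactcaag
Ube2j1: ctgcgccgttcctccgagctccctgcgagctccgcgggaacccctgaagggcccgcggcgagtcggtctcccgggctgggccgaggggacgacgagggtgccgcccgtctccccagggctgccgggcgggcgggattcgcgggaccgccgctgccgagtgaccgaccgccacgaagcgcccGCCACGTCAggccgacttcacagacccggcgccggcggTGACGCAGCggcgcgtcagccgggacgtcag
Ube2l3: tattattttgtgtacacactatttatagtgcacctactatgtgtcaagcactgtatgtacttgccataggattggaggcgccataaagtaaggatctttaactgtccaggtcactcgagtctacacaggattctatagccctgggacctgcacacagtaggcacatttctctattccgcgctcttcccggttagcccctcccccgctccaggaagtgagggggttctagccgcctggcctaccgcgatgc
Ube2k: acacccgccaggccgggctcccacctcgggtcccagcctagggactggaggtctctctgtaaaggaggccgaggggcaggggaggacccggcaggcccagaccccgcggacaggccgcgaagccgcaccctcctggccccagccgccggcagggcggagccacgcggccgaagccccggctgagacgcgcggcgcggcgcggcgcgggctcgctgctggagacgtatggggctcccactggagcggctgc

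MG132 changed members in both directions. In T-N1G cells at 0.3 µM, 15 of 31 rose and 4 fell, where 59.4% of all tested genes were called, 29.1% higher and 30.3% lower. At 1.0 µM, 14 rose and 8 fell in T-N1G cells, where 76.4% of all genes were called, 37.5% higher and 38.9% lower. In mock cells 11 rose and 4 fell at 0.3 µM, where 53.1% of all genes were called, 25% higher and 28.1% lower. In mock cells at 1.0 µM, 10 rose and 7 fell, where 69.7% of all genes were called, 32.4% higher and 37.4% lower. As a share of the 31 that is 61.3% and 71% in T-N1G cells and 48.4% and 54.8% in mock cells, which is close to or below the share over all genes. The members' median log2 change was 0.13 and 0.096 in T-N1G cells and 0.026 and 0.060 in mock cells at 0.3 and 1.0 µM, against -0.013, -0.0057, -0.020 and -0.042 over all genes. The split of the calls depends on the scaling: by library size alone 9 rose and 12 fell at 1.0 µM in T-N1G cells, 9 rose and 11 fell in mock cells, and 8 rose and 5 fell at 0.3 µM in mock cells, with the median of all genes lower by 0.14 in T-N1G cells at 1.0 µM. The members' median at 1.0 µM was then -0.049 in T-N1G cells and -0.036 in mock cells. At 1.0 µM in mock cells, DESeq2's size factors gave 13 that rose and 6 that fell. Same-numbered libraries deviated together between 0.3 µM and vehicle in T-N1G cells, and with the number as a block in the fit of those 6 libraries 17 rose and 7 fell. Ube2b (0.11, adjusted p = 0.0287) and Ube2v1 (0.14, adjusted p = 0.00185) were then also called higher, and Ube2l6 (-0.33, adjusted p = 0.0188), Ube2n (-0.17, adjusted p = 3.30e-04) and Ube2s (-0.22, adjusted p = 2.88e-05) lower. The fit of those 6 libraries without the block also called Ube2v1, Ube2n and Ube2s (adjusted p = 0.0437, 0.0188 and 0.00336). The shares of all genes called belong to the fit of all 18 libraries with TMM scaling and no block. They were not counted for the other scalings and fits.

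**Figure D2:**
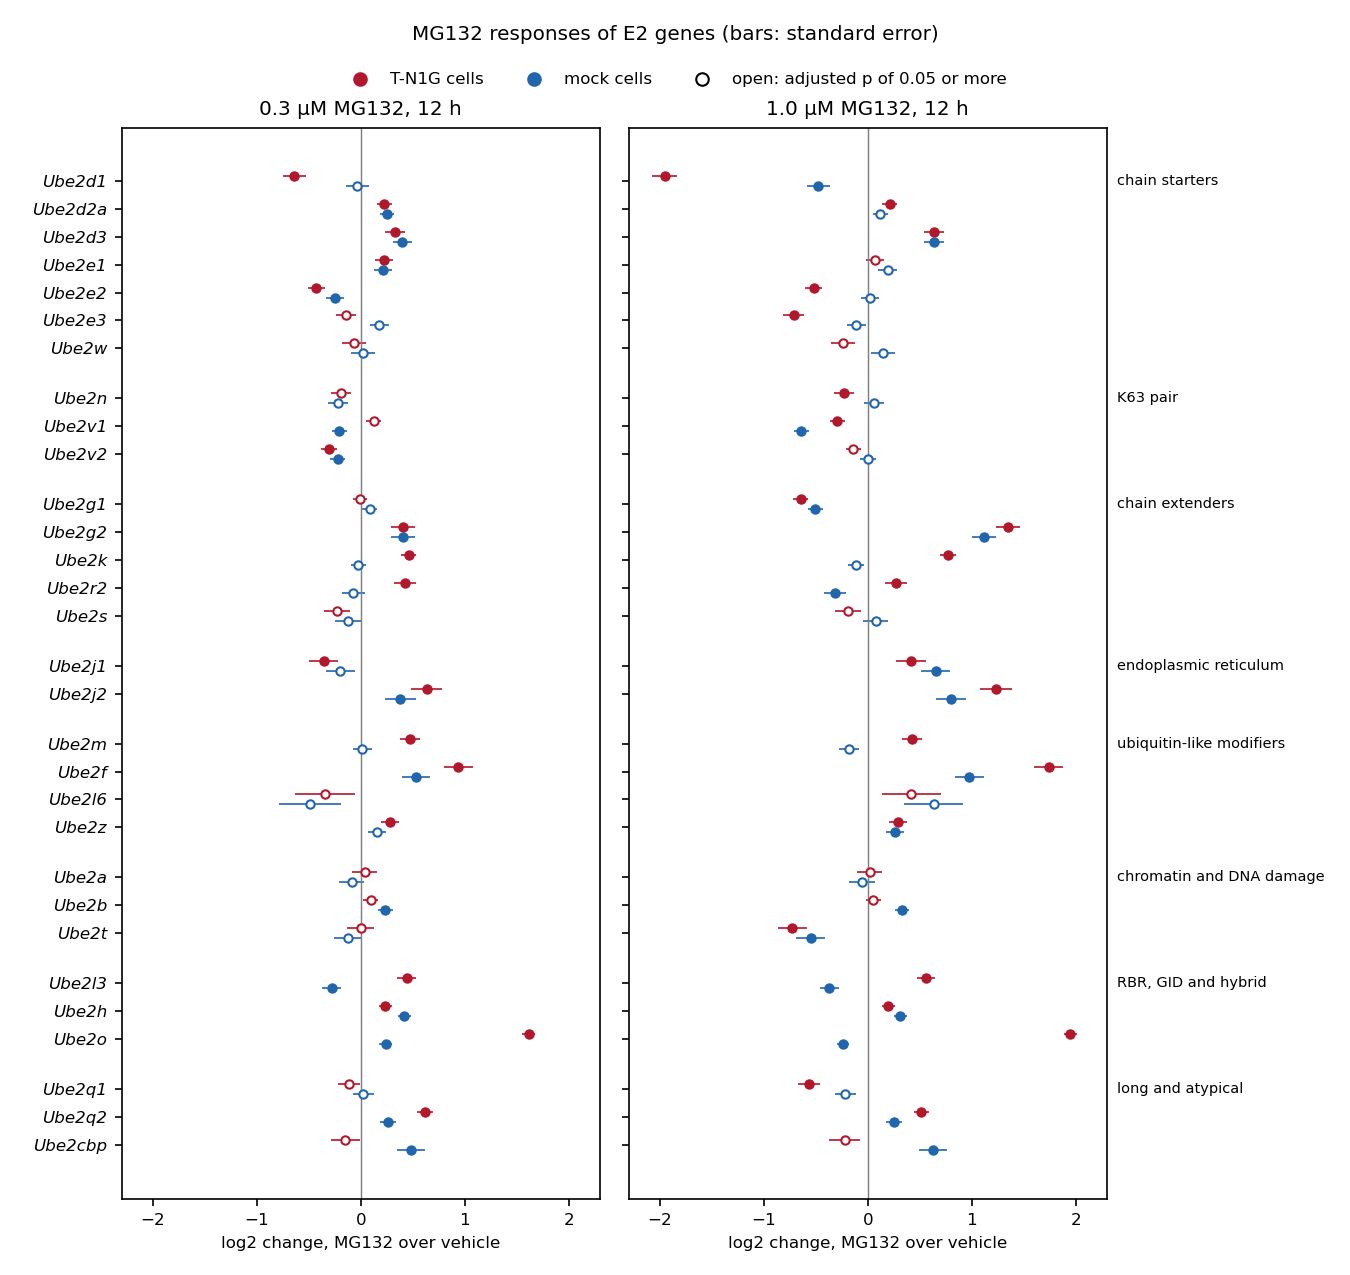
Log2 change of E2 genes with 0.3 µM (left) and 1.0 µM MG132 (right) over vehicle, in T-N1G cells (red, upper point of each gene) and mock cells (blue, lower point), grouped by role. Bars are the SE and open points have an adjusted p of 0.05 or more. Ube2o in T-N1G cells is the farthest to the right at both doses and Ube2d1 in T-N1G cells the farthest to the left.

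The 8 members that rose in both lines at 1.0 µM were Ube2d3, Ube2f, Ube2g2, Ube2h, Ube2j1, Ube2j2, Ube2q2 and Ube2z. The 4 that fell in both were Ube2d1, Ube2g1, Ube2t and Ube2v1. Ube2l3, Ube2o and Ube2r2 rose in T-N1G cells and fell in mock cells. No member fell in T-N1G cells and rose in mock cells at either dose. Ube2a, Ube2l6 and Ube2s were called in none of the 9 comparisons by edgeR with all 18 libraries, TMM scaling and no block.

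Among the E2s that place the first ubiquitin on many substrates, the Ube2d genes parted. Ube2d1 (chr10:70717727-70748010, build mm9 as for all gene positions) had 62.4, 65.2 and 60.0 CPM under vehicle, 37.7, 41.9 and 41.0 CPM at 0.3 µM, and 12.2, 16.2 and 19.9 CPM at 1.0 µM in T-N1G cells. In mock cells it had 60.1, 58.6 and 59.1 CPM under vehicle, 59.4, 57.8 and 56.6 CPM at 0.3 µM, and 45.5, 37.9 and 44.6 CPM at 1.0 µM. At 1.0 µM every library lay below every vehicle library of its line, and the 3 T-N1G libraries lay below all mock libraries. The gene fell 3.87-fold in T-N1G cells at 1.0 µM (log2 change -1.95, SE 0.120, adjusted p = 7.17e-11) and 1.39-fold in mock cells (log2 change -0.47, SE 0.113, adjusted p = 0.00111). Ube2d3, the most abundant of these genes, rose in both lines, by 0.64 in T-N1G cells and 0.64 in mock cells on the log2 scale at 1.0 µM, a difference between the lines of 0.0042 (SE 0.135). Ube2d2a rose by 0.23 at 0.3 µM and 0.21 at 1.0 µM in T-N1G cells, and by 0.25 at 0.3 µM in mock cells. The T-N1G call at 0.3 µM was lost without 0.3 µM library 2 (adjusted p = 0.0542). Its call at 1.0 µM in T-N1G cells was lost by library size alone (adjusted p = 0.289) and in the fit of the compared groups only (adjusted p = 0.0520). In mock cells at 1.0 µM Ube2d2a was not called, but some alternatives called it higher. Among these were DESeq2 (0.20, adjusted p = 0.00758) and the fit without the number 3 libraries at 1.0 µM (0.23, adjusted p = 0.00309).

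The Ube2e genes, which code for E2s much like the Ube2d proteins with an added stretch at the amino end, differed from one another. Ube2e3 (chr2:78709203-78760740) had 33.6, 34.2 and 32.0 CPM under vehicle, 29.8, 31.5 and 29.4 CPM at 0.3 µM, and 21.0, 22.8 and 17.1 CPM at 1.0 µM in T-N1G cells. In mock cells Ube2e3 had 33.4, 33.7 and 33.4 CPM under vehicle, 39.2, 36.6 and 38.2 CPM at 0.3 µM, and 31.8, 34.2 and 27.2 CPM at 1.0 µM. It fell 1.64-fold in T-N1G cells at 1.0 µM (log2 change -0.71, SE 0.0978, adjusted p = 2.66e-06), where the groups did not overlap, while the mock change of -0.11 did not pass (adjusted p = 0.317). At 0.3 µM the mock libraries lay above all mock vehicle libraries, a change of 0.18 that did not pass (adjusted p = 0.118). The fit of the 2 mock groups alone called it higher (0.20, adjusted p = 0.00239), as did that without the number 3 libraries at 1.0 µM (0.21, adjusted p = 0.0123). Ube2e2 had 17.5, 17.3 and 15.7 CPM under vehicle, 12.8, 12.8 and 12.0 CPM at 0.3 µM, and 12.1, 11.2 and 11.9 CPM at 1.0 µM in T-N1G cells. Mock cells had 14.3, 15.2 and 15.1 CPM under vehicle, 13.4, 12.4 and 11.8 CPM at 0.3 µM, and 15.2, 15.2 and 14.9 CPM at 1.0 µM. Ube2e2 fell in both lines at 0.3 µM, by 0.43 in T-N1G cells and 0.25 in mock cells, and at 1.0 µM it fell in T-N1G cells (log2 change -0.52, SE 0.0848, adjusted p = 2.03e-05), while the mock libraries lay around their vehicle level. The mock call at 0.3 µM was lost without mock 0.3 µM libraries 2 or 3 or mock vehicle libraries 2 or 3 (adjusted p from 0.0549 to 0.0982), under DESeq2 (0.0501) and without a count filter (0.0937). Ube2e1, whose locus overlaps that of Nkiras1, rose by 0.23 in T-N1G cells and 0.22 in mock cells at 0.3 µM. Both calls of Ube2e1 were lost on leaving out single libraries (T-N1G 0.3 µM library 2 or T-N1G vehicle library 1 or 3; any 1 of the mock 0.3 µM libraries or mock vehicle library 3), with adjusted p from 0.0677 to 0.141. Library size alone also lost them (adjusted p = 0.0806 in T-N1G cells and 0.0885 in mock cells). At 1.0 µM Ube2e1 was not called, but some alternatives called it higher in mock cells. Among these were DESeq2 (0.27, adjusted p = 0.00717) and the fit of the compared groups only (0.25, adjusted p = 0.0249). Ube2w, which modifies the amino end of proteins, was not called with MG132, with log2 changes from -0.24 in T-N1G cells at 1.0 µM to 0.14 in mock cells at 1.0 µM. It was called lower in T-N1G cells at 1.0 µM without library 3 (-0.30, adjusted p = 0.0423) or by library size alone (-0.38, adjusted p = 0.00830), and higher in mock cells without 1.0 µM library 2 (0.37, adjusted p = 8.19e-04).

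Ube2n builds lysine 63 chains, which serve in signalling and DNA repair, together with Ube2v1 or Ube2v2, E2 variants without a catalytic cysteine. Ube2v1 (chr2:167433138-167457505), whose promoter is printed above, had 223, 244 and 229.9 CPM under vehicle, 250.5, 270.3 and 239 CPM at 0.3 µM, and 195, 203 and 171 CPM at 1.0 µM in T-N1G cells. In mock cells Ube2v1 had 247, 261 and 246 CPM under vehicle, 210.4, 227 and 215 CPM at 0.3 µM, and 167, 163 and 154 CPM at 1.0 µM. Mock libraries were lower with each dose, whereas T-N1G libraries fell below vehicle at 1.0 µM and overlapped it at 0.3 µM. Ube2v1 fell by 0.21 at 0.3 µM and 0.64 at 1.0 µM in mock cells (adjusted p = 0.0210 and 3.64e-07), and by 0.29 at 1.0 µM in T-N1G cells (adjusted p = 0.00128). The mock call at 0.3 µM was lost without mock 0.3 µM library 1 or 3, any 1 of the mock vehicle libraries, or the count filter (adjusted p from 0.0595 to 0.143). Ube2v2 had 64.6, 73.3 and 66.3 CPM under vehicle, 53.7, 57.4 and 54.3 CPM at 0.3 µM, and 68.3, 60.3 and 56.9 CPM at 1.0 µM in T-N1G cells. Mock cells had 65.0, 67.2 and 62.2 CPM under vehicle, 55.4, 54.7 and 56.5 CPM at 0.3 µM, and 65.0, 61.2 and 68.7 CPM at 1.0 µM. It fell at 0.3 µM, by 0.30 in T-N1G cells and 0.22 in mock cells, and its 1.0 µM libraries overlapped vehicle in both lines. Without T-N1G 1.0 µM library 1 it was called lower there (-0.19, adjusted p = 0.0260), as it was by library size alone (-0.28, adjusted p = 9.90e-04). The mock call at 0.3 µM was lost without 0.3 µM library 2, mock vehicle library 1 or 2, or the count filter (adjusted p from 0.0563 to 0.111). Ube2n itself fell by 0.23 in T-N1G cells at 1.0 µM (adjusted p = 0.0428), a call that 10 of 14 alternatives did not keep, among them those without T-N1G 1.0 µM library 2 or 3 or any 1 of the T-N1G vehicle libraries (adjusted p from 0.0708 to 0.226). In mock cells Ube2n was not called, although its 0.3 µM libraries (235 to 242 CPM) lay below all vehicle libraries (269 to 287 CPM). Some alternatives called it lower there, among them the fit of the 2 mock groups alone (-0.20, adjusted p = 4.51e-05) and library size alone (-0.28, adjusted p = 0.00601). At 1.0 µM in mock cells it was called higher without the number 3 libraries (0.21, adjusted p = 0.0291).

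Of the E2s that lengthen chains for degradation, Ube2g2 rose in both lines, Ube2k rose in T-N1G cells, and Ube2g1 fell in both lines at 1.0 µM. Ube2g2 (chr10:77085065-77108735, a locus that also holds Mir1930) works with ligases of the endoplasmic reticulum. It had 105, 107 and 98.6 CPM under vehicle, 140.0, 146 and 126 CPM at 0.3 µM, and 321, 243 and 226 CPM at 1.0 µM in T-N1G cells. In mock cells Ube2g2 had 111, 104 and 106 CPM under vehicle, 147, 138 and 143 CPM at 0.3 µM, and 272, 225 and 202 CPM at 1.0 µM. No MG132 library overlapped vehicle, number 1 was the highest at 1.0 µM in both lines, and the rise at 1.0 µM was 2.54-fold in T-N1G cells (log2 change 1.35, SE 0.116, adjusted p = 6.16e-09) and 2.17-fold in mock cells (log2 change 1.12, SE 0.115, adjusted p = 1.22e-07). Ube2g1, which adds lysine 48 chains to substrates of cullin ligases, had 57.0, 63.9 and 64.1 CPM under vehicle, 62.7, 64.0 and 57.3 CPM at 0.3 µM, and 37.5, 38.7 and 42.2 CPM at 1.0 µM in T-N1G cells. Mock cells had 64.0, 67.0 and 63.5 CPM under vehicle, 66.6, 71.1 and 68.5 CPM at 0.3 µM, and 47.8, 44.2 and 45.0 CPM at 1.0 µM. It fell at 1.0 µM alone, by 0.64 in T-N1G cells and 0.51 in mock cells (adjusted p = 2.01e-07 and 5.30e-06).

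Ube2k (chr5:65928499-65990228) lengthens lysine 48 chains and moved with MG132 in T-N1G cells. Its T-N1G libraries had 159, 167 and 154 CPM under vehicle, 223, 230.4 and 207 CPM at 0.3 µM, and 301, 244 and 275 CPM at 1.0 µM. In mock cells Ube2k had 146, 152 and 144 CPM under vehicle, 146, 149 and 141 CPM at 0.3 µM, and 145, 128 and 136 CPM at 1.0 µM. All T-N1G libraries with MG132 were above all 9 mock libraries, and the rise was 1.38-fold at 0.3 µM and 1.71-fold at 1.0 µM (adjusted p = 3.91e-05 and 3.38e-08). The mock change of -0.11 at 1.0 µM did not pass (adjusted p = 0.189), but it did by library size alone (-0.21, adjusted p = 0.00667). Ube2r2, one of the Cdc34 enzymes that work with cullin ligases, had 295, 298 and 279.6 CPM under vehicle, 398, 407 and 371 CPM at 0.3 µM, and 413, 348 and 289 CPM at 1.0 µM in T-N1G cells. Mock cells had 236, 255 and 239.7 CPM under vehicle, 234, 239 and 223 CPM at 0.3 µM, and 204, 215 and 166 CPM at 1.0 µM. T-N1G libraries at 1.0 µM ran from 289 to 413 CPM and overlapped vehicle, and the rise there of 0.27 (adjusted p = 0.0285) was lost without 1.0 µM library 1 (adjusted p = 0.161), without vehicle library 3 (0.0656), by library size alone (0.238) and in the fit of the compared groups only (0.0797). The fall of 0.32 in mock cells at 1.0 µM (adjusted p = 0.0126) was lost without any 1 of the mock vehicle libraries or 1.0 µM library 3 (adjusted p from 0.0512 to 0.115), and with DESeq2's scaling or test (0.0581 and 0.0547). Ube2s did not pass in any comparison with all 18 libraries, TMM scaling and no block, with 1.0 µM libraries from 183 to 285 CPM in T-N1G cells and from 214 to 297 CPM in mock cells. It was called lower in T-N1G cells at 1.0 µM without T-N1G library 1 (-0.37, adjusted p = 0.00471) and by library size alone (-0.34, adjusted p = 0.00714).

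Ube2j1 and Ube2j2 are anchored in the membrane of the endoplasmic reticulum and serve the disposal of misfolded proteins. Ube2j1 (chr4:33118399-33139339) had 161, 167 and 155 CPM under vehicle, 128, 131 and 117 CPM at 0.3 µM, and 275, 171 and 197 CPM at 1.0 µM in T-N1G cells. In mock cells Ube2j1 had 199, 208 and 213 CPM under vehicle, 183, 174 and 183 CPM at 0.3 µM, and 369, 351 and 252 CPM at 1.0 µM. In both lines all 0.3 µM libraries were below vehicle and all 1.0 µM libraries above it. The fall at 0.3 µM passed in T-N1G cells (-0.36, adjusted p = 0.0368) and not in mock cells (-0.20, adjusted p = 0.250), and the T-N1G call was lost on leaving out any 1 of its 6 libraries (adjusted p from 0.0519 to 0.131). It was also lost without the count filter (adjusted p = 0.0580), while the fit of the 2 mock groups alone called the mock fall (-0.18, adjusted p = 3.38e-04). The rise at 1.0 µM was 0.41 in T-N1G cells (adjusted p = 0.0126) and 0.65 in mock cells (adjusted p = 4.94e-04), and the T-N1G value was 0.22 (adjusted p = 0.0977) without library 1. By library size alone the T-N1G value was 0.26 (adjusted p = 0.0577). Ube2j2 had 10.8, 13.7 and 11.05 CPM under vehicle, 19.4, 21.0 and 14.9 CPM at 0.3 µM, and 34.1, 23.8 and 25.8 CPM at 1.0 µM in T-N1G cells. Mock cells had 15.9, 15.5 and 12.6 CPM under vehicle, 19.8, 18.7 and 18.8 CPM at 0.3 µM, and 28.7, 23.3 and 24.6 CPM at 1.0 µM. It rose at both doses, 2.35-fold in T-N1G cells and 1.74-fold in mock cells at 1.0 µM (adjusted p = 6.35e-07 and 1.08e-04), and no 1.0 µM library overlapped vehicle. The mock rise of 0.38 at 0.3 µM was lost without any 1 of the mock 0.3 µM libraries or mock vehicle library 3 (adjusted p from 0.0698 to 0.126) and by library size alone (0.0511).

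Of the E2s for ubiquitin-like proteins, the pair that conjugates NEDD8 to cullins rose in T-N1G cells. Ube2f (chr1:93146895-93182602), the NEDD8 E2 that serves cullin 5, had 45.0, 46.5 and 43.7 CPM under vehicle, 85.6, 92.4 and 81.2 CPM at 0.3 µM, and 196, 132 and 124 CPM at 1.0 µM in T-N1G cells. In mock cells Ube2f had 44.4, 41.3 and 39.2 CPM under vehicle, 63.4, 58.6 and 58.5 CPM at 0.3 µM, and 96.5, 78.8 and 70.6 CPM at 1.0 µM. Levels were higher at each dose in both lines without overlap, with T-N1G library 1 at 1.0 µM far above the other 2. The rise at 1.0 µM was 3.34-fold in T-N1G cells (log2 change 1.74, SE 0.139, adjusted p = 2.98e-09) and 1.97-fold in mock cells (log2 change 0.98, SE 0.138, adjusted p = 6.23e-06). Ube2m, the NEDD8 E2 of the other cullins, averaged 136 ± 5.76, 189 ± 5.68 and 183 ± 29.5 CPM in T-N1G cells and 121 ± 4.04, 122 ± 2.44 and 107 ± 11.9 CPM in mock cells at vehicle, 0.3 and 1.0 µM (SD, n = 3 each). It rose by 0.48 and 0.43 in T-N1G cells, and its mock changes of 0.017 and -0.18 did not pass, although at 1.0 µM it was called lower by library size alone (-0.27, adjusted p = 0.00529).

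Ube2z (chr11:95908749-95926678), which is charged by Uba6 and also carries the ubiquitin-like FAT10, had 161, 172 and 164 CPM under vehicle, 197, 214 and 195 CPM at 0.3 µM, and 228, 187 and 194 CPM at 1.0 µM in T-N1G cells. In mock cells Ube2z had 197, 213 and 207 CPM under vehicle, 228, 229 and 230.4 CPM at 0.3 µM, and 275, 247 and 217 CPM at 1.0 µM. It rose by 0.28 and 0.29 in T-N1G cells and by 0.26 in mock cells at 1.0 µM. Every MG132 library lay above the vehicle libraries of its line, also in mock cells at 0.3 µM, where Ube2z was not called. The fit of the compared groups only called it higher there (0.18, adjusted p = 2.07e-04), as did the fit without the number 3 libraries at 1.0 µM (0.18, adjusted p = 0.0307). The T-N1G call at 1.0 µM was lost by library size alone (adjusted p = 0.0535). Ube2l6, the E2 for the interferon-induced ISG15, was scarce and uneven, with 6.37 to 13.5 CPM in T-N1G libraries and 5.17 to 12.7 CPM in mock libraries at 1.0 µM. It was called higher in mock cells at 1.0 µM without library 2 (0.98, adjusted p = 0.00230), with DESeq2 (0.71, adjusted p = 0.0284) or its size factors (0.72, adjusted p = 0.0333), and with a replicate block (0.59, adjusted p = 0.0211). It was called higher in T-N1G cells at 1.0 µM without library 2 (0.64, adjusted p = 0.0492), and lower at 0.3 µM in the fit of the 2 mock groups alone (-0.47, adjusted p = 0.00224).

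Ube2a and Ube2b, the mouse Rad6 enzymes, put a single ubiquitin on histone H2B, and Ube2t acts with Fancl in repair of DNA crosslinks. Ube2t (chr1:136859141-136870756) had 6.21, 6.40 and 6.86 CPM under vehicle, 6.09, 5.77 and 7.59 CPM at 0.3 µM, and 3.75, 4.12 and 3.90 CPM at 1.0 µM in T-N1G cells. In mock cells Ube2t had 5.39, 5.69 and 5.29 CPM under vehicle, 5.41, 5.33 and 4.29 CPM at 0.3 µM, and 3.27, 4.01 and 3.89 CPM at 1.0 µM. It fell in both lines at 1.0 µM without overlap, by 0.73 in T-N1G cells and 0.55 in mock cells (adjusted p = 1.23e-04 and 0.00194), from 58 to 149 fragments a library. Ube2b rose in mock cells, by 0.24 and 0.33 (adjusted p = 0.00882 and 4.55e-04), while its T-N1G changes of 0.10 and 0.055 did not pass without the block. Ube2a had log2 changes between -0.086 and 0.041, none of which passed.

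Ube2o (chr11:116399066-116442761) is a large enzyme that acts as E2 and E3 at once and clears unassembled ribosomal proteins during red cell maturation. It had 68.9, 70.2 and 71.3 CPM under vehicle, 212, 221 and 211 CPM at 0.3 µM, and 276, 271 and 264 CPM at 1.0 µM in T-N1G cells. In mock cells Ube2o had 82.2, 81.7 and 76.9 CPM under vehicle, 90.6, 99.9 and 94.2 CPM at 0.3 µM, and 63.9, 71.6 and 68.5 CPM at 1.0 µM. The lowest T-N1G library with MG132, at 210.9 CPM, was above the highest of all other libraries, at 99.9 CPM. Ube2o rose 3.06-fold at 0.3 µM and 3.86-fold at 1.0 µM in T-N1G cells (log2 change 1.61, SE 0.0618, adjusted p = 1.19e-12 and log2 change 1.95, SE 0.0623, adjusted p = 2.96e-14). In mock cells it rose by 0.24 at 0.3 µM (adjusted p = 0.00273) and fell by 0.24 at 1.0 µM (adjusted p = 0.00209), and the fall was lost without mock 1.0 µM library 1 or mock vehicle library 1 or 2 (adjusted p from 0.0528 to 0.0655).

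Ube2l3 (chr16:17152107-17201585) passes ubiquitin to ligases of the RBR kind, such as Parkin, and of the HECT kind. Its T-N1G libraries had 247, 265 and 254 CPM under vehicle, 346, 371 and 324 CPM at 0.3 µM, and 444, 346 and 339 CPM at 1.0 µM. In mock cells Ube2l3 had 260.3, 269 and 252 CPM under vehicle, 219, 212 and 212 CPM at 0.3 µM, and 217, 199 and 189 CPM at 1.0 µM. MG132 libraries were above vehicle in T-N1G cells and below it in mock cells, without overlap. Ube2l3 rose 1.36-fold and 1.47-fold in T-N1G cells (adjusted p = 3.33e-04 and 1.74e-05) and fell 1.21-fold and 1.29-fold in mock cells (adjusted p = 0.0136 and 0.00129) at 0.3 and 1.0 µM. The mock call at 0.3 µM was lost without mock vehicle library 2 (adjusted p = 0.0704). Ube2h, the E2 of the GID/CTLH ligase, had 118, 122 and 131 CPM under vehicle, 143, 150.3 and 143 CPM at 0.3 µM, and 140.5, 145 and 140.3 CPM at 1.0 µM in T-N1G cells. Mock cells had 112, 109.6 and 112 CPM under vehicle, 151, 147 and 149 CPM at 0.3 µM, and 147, 128 and 139 CPM at 1.0 µM. It rose at both doses in both lines, by 0.20 in T-N1G cells and 0.31 in mock cells at 1.0 µM, and the T-N1G value was 0.054 (adjusted p = 0.429) by library size alone.

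**Figure D3:**
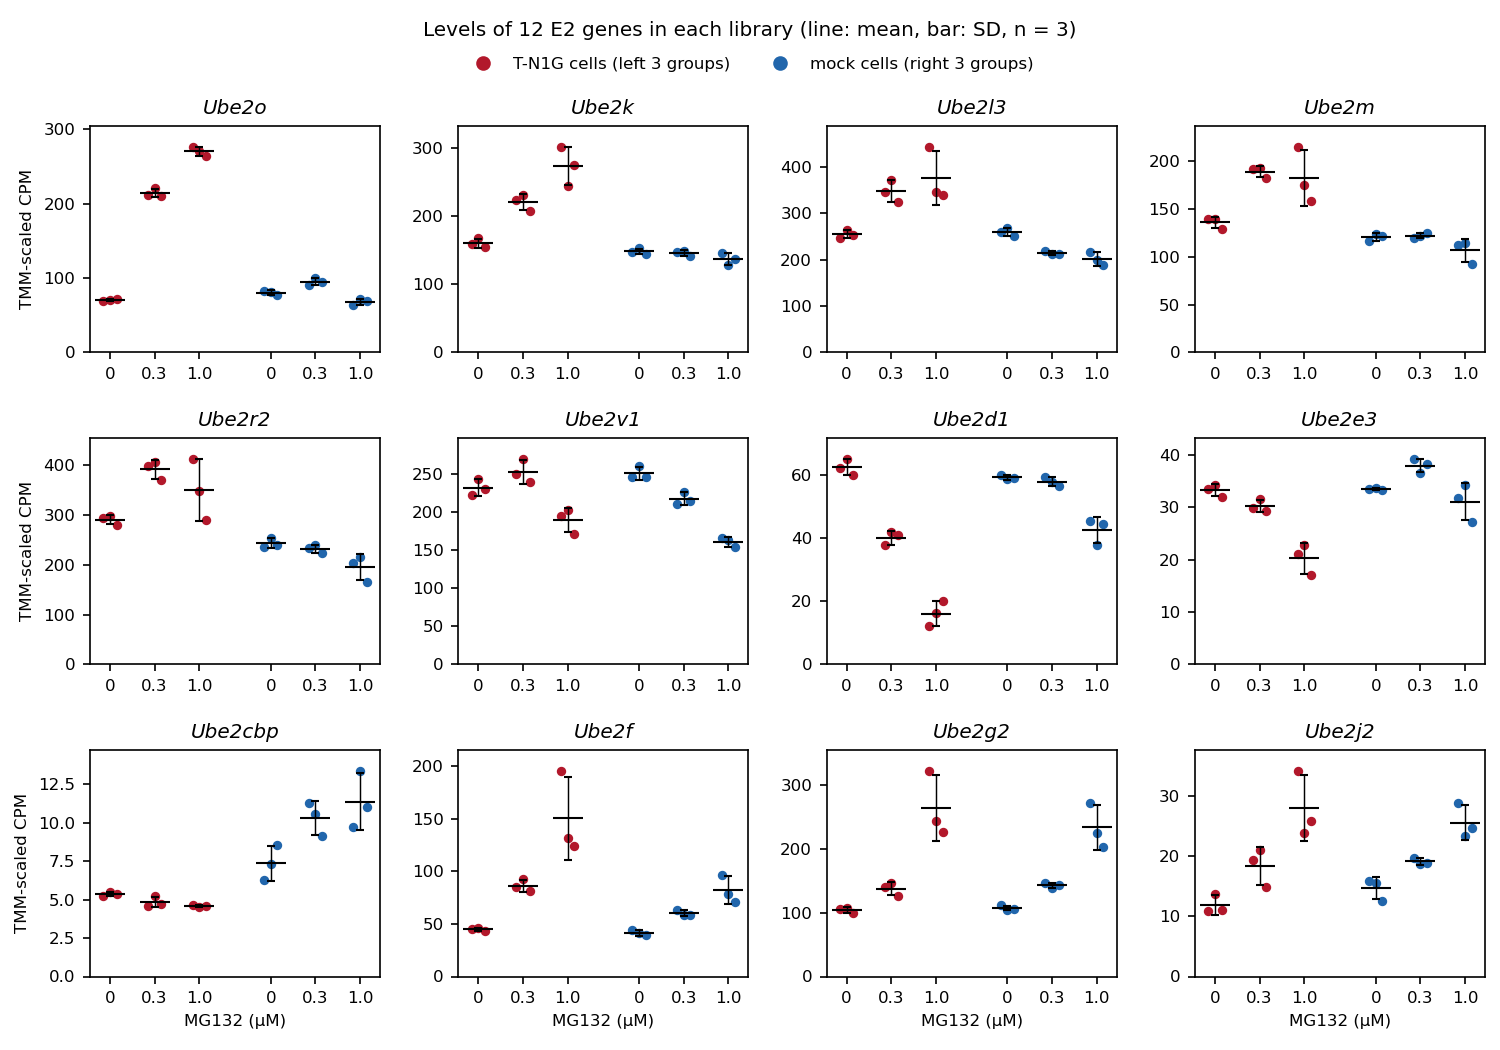
TMM-scaled CPM of 12 E2 genes in each library, with T-N1G cells (red) left of mock cells (blue) and MG132 at 0, 0.3 and 1.0 µM. Points are libraries, horizontal marks means and bars the SD of 3 libraries. Ube2o reaches 270.4 CPM in T-N1G cells at 1.0 µM against 68.0 CPM in mock cells, and Ube2cbp is higher with MG132 in mock cells.

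The atypical members went different ways. Ube2cbp (chr9:86200840-86358523), the E2-binding protein, had 5.24, 5.48 and 5.39 CPM under vehicle, 4.61, 5.21 and 4.73 CPM at 0.3 µM, and 4.67, 4.51 and 4.61 CPM at 1.0 µM in T-N1G cells. In mock cells Ube2cbp had 6.26, 7.31 and 8.53 CPM under vehicle, 11.3, 10.6 and 9.12 CPM at 0.3 µM, and 9.70, 13.4 and 11.03 CPM at 1.0 µM. All T-N1G libraries were below all mock libraries at each dose, on 76 to 253 fragments a library. It rose by 0.48 and 0.62 in mock cells (adjusted p = 0.00529 and 4.47e-04), and its T-N1G changes of -0.15 and -0.22 did not pass. Ube2q2, an E2 with a long amino-terminal extension, rose in both lines, by 0.62 and 0.52 in T-N1G cells and 0.26 and 0.25 in mock cells. Its relative Ube2q1 fell by 0.57 in T-N1G cells at 1.0 µM (adjusted p = 9.40e-05) and its mock change of -0.22 did not pass. That change was called with a replicate block (adjusted p = 0.0412), by library size alone (-0.30, adjusted p = 0.0370), without mock 1.0 µM library 3 (-0.32, adjusted p = 0.0150) and without both number 3 libraries at 1.0 µM (-0.26, adjusted p = 0.0204).

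The response to MG132 was then compared between the lines, as the log2 change in T-N1G cells minus that in mock cells. At 0.3 µM it was more positive in T-N1G cells for 7 members and more negative for 2, where 25.1% of all genes were called, 14.2% and 11%. At 1.0 µM it was more positive for 7 and more negative for 5, where 45% of all genes were called, 22.9% and 22.1%. Those are 29% and 38.7% of the members. Ube2o stood first at both doses, with 1.37 (SE 0.0861, adjusted p = 8.07e-09) and 2.19 (SE 0.0869, adjusted p = 1.41e-11). Beside it, the proteasome subunit gene Psmd11 had 1.58 and 2.03 and Psma5 had 1.78 and 2.51.

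**Figure D4:**
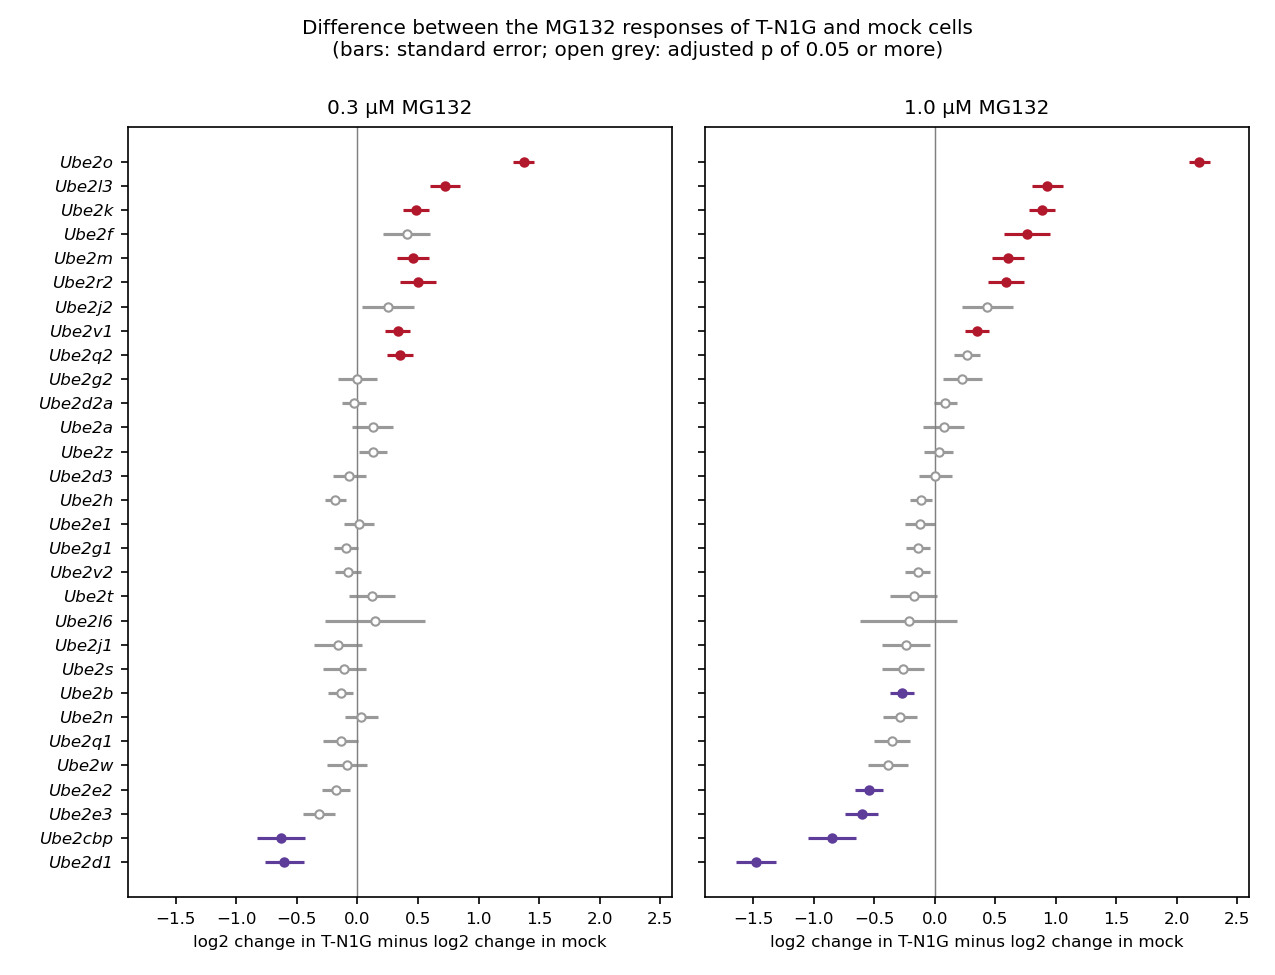
Log2 change with MG132 in T-N1G cells minus that in mock cells for E2 genes at 0.3 µM (left) and 1.0 µM (right), in the order of the values at 1.0 µM. Bars are the SE, red and purple points passed the test, and open grey points did not. Ube2o has the highest value and Ube2d1, at -1.48 with 1.0 µM, the lowest.

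Behind Ube2o at 1.0 µM came Ube2l3 with 0.93, Ube2k with 0.89, Ube2f with 0.76, Ube2m with 0.61, Ube2r2 with 0.59 and Ube2v1 with 0.35 (adjusted p from 2.81e-06 to 0.00951). Their changes in T-N1G cells and mock cells were 0.56 and -0.37 for Ube2l3, 0.77 and -0.11 for Ube2k, and 0.43 and -0.18 for Ube2m. Ube2f differed in another way, since it rose in both lines and more in T-N1G cells. Ube2v1 fell in both lines, and less in T-N1G cells, but its call was lost without mock vehicle library 2, T-N1G vehicle library 1 or the count filter (adjusted p from 0.0566 to 0.0605). The more negative responses at 1.0 µM were those of Ube2d1 (-1.48, adjusted p = 1.08e-06), Ube2cbp (-0.85), Ube2e3 (-0.60), Ube2e2 (-0.54) and Ube2b (-0.27). The calls of 10 of these 12 members at 1.0 µM were kept under all 20 alternatives, the exceptions being Ube2v1 and Ube2b. Some alternatives called further members at 1.0 µM. Ube2q1 and Ube2w were more negative with DESeq2 (-0.39 and -0.42, adjusted p = 0.0356 and 0.0454), and Ube2n by library size alone (-0.34, adjusted p = 0.0186). At 0.3 µM the 5 kept under all 20 were Ube2o, Ube2l3 (0.72), Ube2k (0.48), Ube2m (0.46) and Ube2d1 (-0.60). There the fit of the compared groups only also called Ube2f more positive (0.39, adjusted p = 9.12e-04). It called Ube2e3 (-0.33, adjusted p = 0.00192), Ube2h (-0.20, adjusted p = 0.0161) and Ube2j1 (-0.17, adjusted p = 0.0457) more negative.

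Between the lines at one treatment, fewer members were called without MG132 than with it in the fit of all 18 libraries. Under vehicle none was higher and 3 of 31 were lower in T-N1G cells, that is 9.68%, where 16.1% of all genes were called, 8.43% higher and 7.72% lower. These were Ube2cbp at -0.46 (adjusted p = 0.0305), Ube2z at -0.31 (adjusted p = 0.0177) and Ube2o at -0.20 (adjusted p = 0.0362), with no overlap between the lines. No call of the 3 was kept in every fit that left out 1 of the 6 vehicle libraries, and the fit without 1 of them gave 0 to 2 calls. In the fit of the vehicle libraries alone 4 members were higher and 7 lower, among them Ube2r2 (0.25, adjusted p = 5.53e-04) and Ube2j1 (-0.36, adjusted p = 3.36e-05). The share of all genes called in that fit was not counted.

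At 0.3 µM, 9 members were higher and 6 lower in T-N1G cells than in mock cells, where 48.5% of all genes were called, 25% higher and 23.5% lower. At 1.0 µM, 8 were higher and 11 lower, where 61.9% were called, 30.7% higher and 31.3% lower. Ube2o was 2.26-fold higher at 0.3 µM and 3.97-fold higher at 1.0 µM (adjusted p = 2.92e-14), and Ube2k 1.51-fold and 2.00-fold higher. Ube2l3 was 1.87-fold, Ube2f 1.84-fold, Ube2r2 1.79-fold and Ube2m 1.72-fold higher in T-N1G cells at 1.0 µM. Ube2d1 was 2.64-fold, Ube2cbp 2.47-fold and Ube2e3 1.53-fold lower in T-N1G cells. Ube2b, Ube2j1 and Ube2q2 also kept their calls at both doses, Ube2b and Ube2j1 lower in T-N1G cells and Ube2q2 higher, although the lines overlapped for Ube2j1 at 1.0 µM. Under vehicle the lines already lay apart without overlap for Ube2j1 (-0.36), Ube2r2 (0.26), Ube2m (0.17), Ube2b (-0.12) and Ube2k (0.11). Those differences did not pass with all 18 libraries (adjusted p from 0.0910 to 0.335). Other members also lay apart under vehicle, and the share of all genes that did so was not counted. Under all alternatives run, 12 of the 15 calls at 0.3 µM and 12 of the 19 at 1.0 µM were kept. At 1.0 µM the calls lost on leaving out 1 library were those of Ube2n (without mock library 1, adjusted p = 0.0560), Ube2v1 (without mock library 2 or T-N1G library 1, 0.0560 and 0.0658) and Ube2w (without mock library 3, 0.0809). At 0.3 µM they were those of Ube2d2a, Ube2t and Ube2v1 (adjusted p from 0.0521 to 0.192). Same-numbered libraries of the lines deviated together at 1.0 µM, and with the number as a block in the fit of those 6 libraries 8 were higher and 12 lower, against 7 and 5 without the block. The share of all genes called in these smaller fits was not counted.

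Chromosomes 4 and 11, a pair chosen with earlier results of these data known, were set together against all other chromosomes. Under vehicle the median log2 difference of their 1944 tested genes was -0.21, with 23.6% called lower in T-N1G cells, against 0.025 and 4.99% of the 11314 genes elsewhere. They carry 7 members, Ube2b, Ube2g1, Ube2j1, Ube2j2, Ube2o, Ube2r2 and Ube2z, whose median was -0.20, against 0.049 for the other 24. Of the 3 members lower under vehicle, Ube2o and Ube2z are on chromosome 11. Single chromosomes were not compared, and the part of chromosomes 4 and 11 in the differences between the lines was not tested.

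Other genes of the conjugation pathway were read from lists of 8 E1 and related genes, 7 E2 genes named otherwise and 38 E3 ligases and partners, all 53 tested. In T-N1G cells at 1.0 µM 22 rose and 18 fell, and in mock cells 16 rose and 24 fell, where 37.5% and 38.9% of all genes did so in T-N1G cells and 32.4% and 37.4% in mock cells. The response was more positive in T-N1G cells for 25 of the 53 and more negative for 7 at 1.0 µM, and for 10 and 1 at 0.3 µM, where the shares over all genes were 22.9% and 22.1% at 1.0 µM and 14.2% and 11% at 0.3 µM. The largest rises in T-N1G cells at 1.0 µM were those of Ubr4, an E3 that reads destabilising amino ends, with 2.41, of Arih2, an RBR ligase that works with cullin 5, with 2.08, and of Ube4a, which extends chains, with 1.72. The mock changes of these 3 were 1.36, 1.26 and -0.14, the last with an adjusted p of 0.111. The largest falls were those of the HECT ligase Hectd3, with -1.32, and of the anaphase-promoting complex subunits Anapc11, with -1.19, and Anapc2, with -1.17, against -0.75, -0.57 and -1.31 in mock cells.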

How the data were processed

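Strand-specific poly(A) libraries were made per the labels' protocols. The submitters' processing notes name Cuffdiff 2.1.1, TopHat2 2.0.8b, bcl2fastq 2.16.0.10 and build mm9. The strand setting of the counting is not given in the sources used here. The authors deposited, for each gene and library, an estimated count of fragments and an FPKM value. The counts were whole in 98.16% to 98.51% of values (tolerance 1e-06) and were rounded, and 2 genes left unprocessed in some libraries were dropped. Within groups, no pair of libraries was a duplicate, since the lowest chi-square per degree of freedom was 2.82.

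Cuffdiff's conditions and replicate numbers were read as the line, dose and number in the sample titles, a match that the files do not spell out. Counts were tested with edgeR 4.0.16 (R 4.3.3): TMM factors, its expression filter and a robust quasi-likelihood fit to all 18 libraries with 6 group means, 9 contrasts and Benjamini-Hochberg adjustment over 13258 genes. The steps were tested on simulated data. DESeq2 1.42.0, limma 3.58.1 on log2(FPKM + 1), other scalings, no filter, smaller fits, replicate blocks and fits without 1 library were alternatives.

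Values for every library were given for the 3 most changed called members in each direction of each contrast. The members, roles and lists were chosen with earlier results of these data known. Same-numbered libraries deviated together between the lines at 1.0 µM (correlations 0.42 to 0.59) and between 0.3 µM and vehicle in T-N1G cells (0.20 to 0.35), and not in the other contrasts. One of the members is counted but not reported here. Reads were not analysed here.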

Additional observations from a re-analysis of the deposited data

Results flagged for a closer look

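The test of the difference between T-N1G cells and mock cells in the response to MG132 passed for 9 members at 0.3 µM and 12 at 1.0 µM (edgeR's quasi-likelihood test, adjusted over all genes). At 0.3 µM the log2 response was more positive in T-N1G cells for Ube2o (1.37), Ube2l3 (0.72), Ube2r2 (0.50), Ube2k (0.48), Ube2m (0.46), Ube2q2 (0.35) and Ube2v1 (0.33). It was more negative for Ube2cbp (-0.63) and Ube2d1 (-0.60). At 1.0 µM it was more positive for Ube2o (2.19), Ube2l3 (0.93), Ube2k (0.89), Ube2f (0.76), Ube2m (0.61), Ube2r2 (0.59) and Ube2v1 (0.35). It was more negative for Ube2d1 (-1.48), Ube2cbp (-0.85), Ube2e3 (-0.60), Ube2e2 (-0.54) and Ube2b (-0.27). Both doses share their vehicle libraries. At 0.3 µM the calls of Ube2cbp, Ube2q2, Ube2r2 and Ube2v1 were each lost under at least 1 alternative.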

How the results depend on the processing

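Of the alternative counts of members called, 130 were within 1.5 times the count reported and 10 were not. In the contrasts for which a member was named, 738 alternative values kept their direction and side of the threshold, 40 kept the direction but no longer passed, and none changed direction. Over all called members, every alternative kept 15 of 19 (0.3 µM) and 16 of 22 (1.0 µM) calls in T-N1G cells, 8 of 15 and 14 of 17 in mock cells, and 5 of 9 and 10 of 12 for the difference in response. The count most dependent on the processing was that between the lines under vehicle: 3 members were called with all libraries, 0 to 2 on leaving out 1 vehicle library, 5 by library size alone, 11 in the fit of the vehicle libraries alone, and 6 without the number 3 libraries at 1.0 µM, an alternative chosen after seeing the data. The fit of the compared groups alone, which takes its spread from those groups, gave 23 in place of 15 for 0.3 µM against vehicle in mock cells. Between the lines at 1.0 µM it gave 12 in place of 19. Leaving out 1 library gave 15 to 18 (0.3 µM) and 20 to 23 (1.0 µM) in T-N1G cells, 11 to 13 and 16 to 21 in mock cells, 7 to 9 and 11 to 16 for the difference in response, and 13 to 14 and 18 to 22 between the lines.

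With the replicate number as a block in the fit of all 18 libraries, the counts were 19 and 22 in T-N1G cells, 16 and 20 in mock cells, 9 and 14 for the difference in response, and 4, 15 and 20 between the lines under vehicle, 0.3 and 1.0 µM. In the fit of the compared groups alone the block gave 24 for 0.3 µM against vehicle in T-N1G cells and 20 between the lines at 1.0 µM, an alternative added after seeing the data. The share of all genes called was not counted in the alternatives, and the cause of these shifts was not tested. Depth limits Ube2t, Ube2cbp and Ube2l6, the members with the lowest counts.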
